A study of Rattus norvegicus with 2 samples.

Results

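The neurotrophins and their receptors were read out here as 6 genes, Bdnf, Ntf3, Ntrk2, Ntrk3, Ngfr and Sort1, chosen by the gene name given to each probe of the array. They are 6 of the 17573 recognised genes on the array and held 11 of its 30367 non-control probes. All 11 probes stood clear of background on both arrays, so all 6 genes are among the 14175 measured. The arrays carried RNA from the paraventricular nucleus, a hypothalamic centre of stress hormone release and autonomic outflow, of 12-week-old male Sprague Dawley rats. 1 array came from offspring whose mothers had received dexamethasone, a synthetic glucocorticoid, at 200 µg/kg in the third trimester, and 1 array came from offspring of vehicle-treated mothers, called control. The labels do not say whether an array held 1 animal or a pool. With 1 array per group there is no replicate check, and no test or p-value is given. The errors below are those between repeated spots of a probe within these arrays. Signals are processed fluorescence in arbitrary units, with background taken off by the scanner software. The background criterion is that software's own call on each spot. Log2 differences, dexamethasone minus control, follow scaling of each array to its 75th percentile. The alternative called normexp joins a model-based background correction, an offset of 50 and quantile normalization in place of that scaling. Its values therefore mix these steps. The call used is a rule of size: a gene passes when its arrays differ 2-fold or more.

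Neurotrophins are secreted growth factors that keep neurons alive and adjust their synapses. Each mature neurotrophin acts on a Trk receptor tyrosine kinase, which passes the signal through docking of Shc and phospholipase C gamma to the MAP kinase, PI3 kinase and calcium pathways. The uncleaved precursors act instead on Ngfr, the p75 receptor, together with the sorting receptor Sort1, and can promote cell death. In the paraventricular nucleus of the rat, Bdnf is known as a stress-sensitive peptide gene whose product affects the stress axis and blood pressure.

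The probes are 60-base oligonucleotides, of which 3 are printed here. The place of the 11 probes in exons and UTRs was not analysed here, and the docking-site codons named below were found by a search of the probe letters. The Ntf3 probe (rn4 chr4:162436573-162436632, minus strand), which carries the largest difference of the 6 genes, reads a gene whose product is made as a precursor. The Ntrk2 probe (rn4 chr17:11496095-11496154, minus strand) holds the codons of the phospholipase C gamma docking site, in capitals, which is known from the kinase-bearing receptor and not from the truncated forms. The Ntrk3 probe (rn4 chr1:134081453-134081512, minus strand) holds the codons of the Shc docking site, in capitals.
Ntf3: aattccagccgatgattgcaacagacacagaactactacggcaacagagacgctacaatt
Ntrk2, transcript variant 1: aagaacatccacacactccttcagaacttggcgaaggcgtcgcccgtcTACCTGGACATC
Ntrk3: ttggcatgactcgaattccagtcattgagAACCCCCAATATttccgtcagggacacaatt

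Both ligand genes among the 6 were higher in the dexamethasone array, and the receptor genes lay within 2-fold at their brightest probes. Of the 6 genes 2 passed 2-fold upward and 0 downward, where 3.37% of all measured genes passed upward, 2.38% downward and 5.76% either way. Of their 11 probes 2 passed upward and 1, a probe of the receptor gene Ntrk2, downward. Of all measured probes 2.66% passed upward and 3.18% downward. In all, 5 of the 6 were above 0 and 1 was below, with a median log2 difference of 0.67, against 0.0082 over all measured genes, of which 51.2% were above 0. With 6 genes these counts describe the members and say nothing of the family beyond them.

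**Figure D1:**
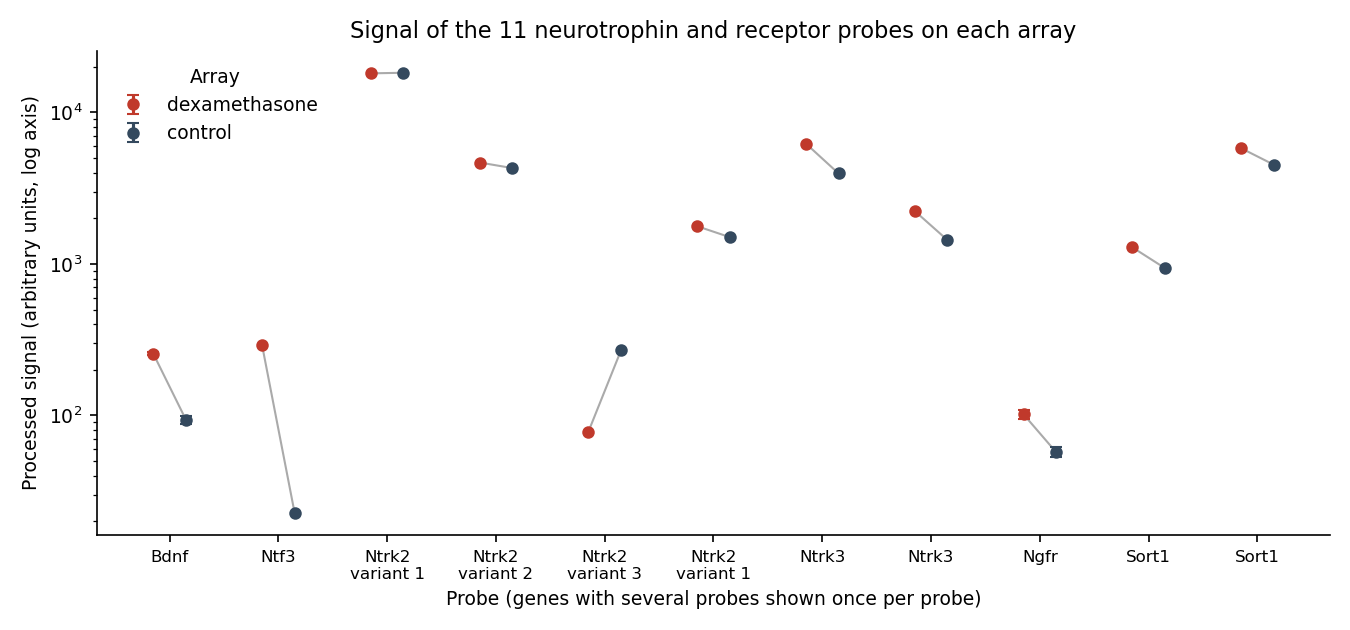
Processed signal (arbitrary units, log axis) of each of the 11 probes on the dexamethasone array (red, left) and the control array (dark, right); bars on Bdnf and Ngfr are the SD over repeated spots, and the other probes have 1 spot per array. The Ntf3 line is the steepest, at 292.5 against 22.7, and the Ntrk2 variant 3 line alone slopes strongly the other way, at 77.9 against 269.

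Ntf3 encodes neurotrophin-3, the preferred ligand of the receptor made by Ntrk3. Its single spot had a processed signal of 292.5 in the dexamethasone array and 22.7 in the control array. After scaling this was a log2 difference of 3.61, or 12.2-fold higher, and Ntf3 stood 27th from the top of 14175 genes. The processed signal is the software's own value and does not equal the raw reading minus the local background. Before background subtraction the Ntf3 spot read 333.8 over a local background of 58 in the dexamethasone array. In the control array it read 80.8 over a local background of 67. The control spot thus stood close to its surroundings, although above 6.53, the lowest signal that passed the background criterion there. The size therefore depended on the background handling, with a difference of 2.05 under normexp correction and 1.97 without correction, both still past 2-fold. The scanner software put the error of these signals at 29.3 in the dexamethasone array and 2.75 in the control array. Among 52 repeatedly spotted probes of similar mean brightness over both arrays, the spot SD of the difference had a median of 0.11 and reached 0.22. That mean is brighter than the control spot of 22.7, so these SDs do not give the error of a spot so dim.

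Bdnf encodes brain-derived neurotrophic factor, the main ligand of the receptor made by Ntrk2. Its probe (rn4 chr3_random:979381-979440, an unplaced piece of chromosome 3) was spotted 10 times. In the dexamethasone array the 10 spots ran from 246.7 to 265.3, with a median of 254.4, and in the control array from 85.8 to 103.4, with a median of 93.2. The spots of the arrays did not overlap, and all 10 pairs were higher in the dexamethasone array, by 1.25 to 1.54 on the log2 scale. Over the 1314 probes repeated 5 or more times the median spot SD was 0.041, so spots can separate well within 2-fold. The share of those probes whose spots separate was not counted. Bdnf was 2.59-fold higher, a log2 difference of 1.38 with a spot SD of 0.088 (10 spots). It stood 271st from the top, with 1.9% of genes differing more in that direction. Under normexp correction it was at 0.98 and without background correction at 0.95, so its 2-fold call ended by a small margin in both. Repeated spots show how well 1 RNA was read, and say nothing of the spread between animals.

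**Figure D2:**
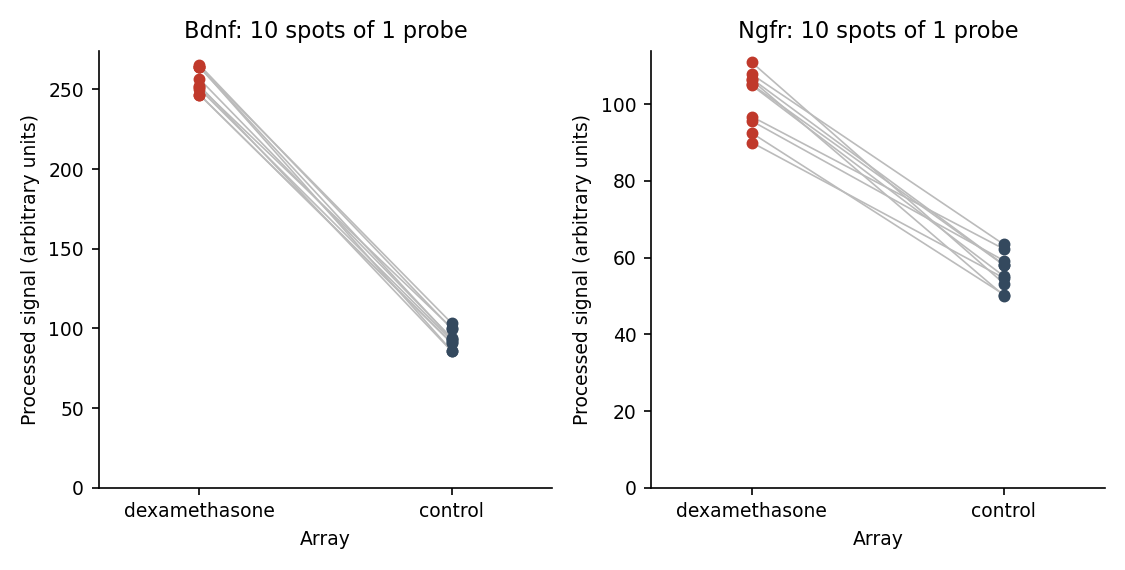
Processed signal (arbitrary units, axis from 0) of every spot of the Bdnf probe and the Ngfr probe on the dexamethasone array (red) and the control array (dark), with a line joining the spots at the same place on both arrays; 1 Ngfr spot with an outlier mark in the control array is drawn but left out of the values. Neither gene has a dexamethasone spot as low as its highest control spot, and how many other repeated probes separate likewise was not counted.

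The receptor genes differed less. Ngfr encodes the p75 receptor, which binds all neurotrophins and their precursors. Its probe (rn4 chr10:84263082-84263141) averaged 102 ± 7.24 in the dexamethasone array (SD, 10 spots, from 90.0 to 110.9) and 57.1 ± 4.28 in the control array (SD, 9 spots, from 50.1 to 63.4). All 9 usable spot pairs were higher in the dexamethasone array, by 0.56 to 1.01. Ngfr was 1.69-fold higher (log2 difference 0.75, spot SD 0.16), which was 0.44 with normexp correction and 0.38 without background correction. It did not reach 2-fold under any setting tried.

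Ntrk3 encodes TrkC, the receptor of neurotrophin-3, and its probes gave nearly the same answer from places 155.9 kb apart. The probe on the Shc docking site read 2236 in the dexamethasone array and 1439 in the control array, a log2 difference of 0.56. The other (rn4 chr1:133925530-133925589) read 6227 in the dexamethasone array and 3956 in the control array, a log2 difference of 0.58, or 1.49-fold higher. Repeated probes of that brightness had a median spot SD of 0.030 (153 probes), smaller than the difference of this probe, which has 1 spot per array. The scanner software put the error of its signals at 623 in the dexamethasone array and 396 in the control array. Its log2 difference ranged from 0.53 to 0.60 over the alternatives.

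Sort1 encodes sortilin, which carries neurotrophin precursors through the cell and pairs with p75 at its surface. Its brighter probe (rn4 chr2:203930799-203930858) read 5809 in the dexamethasone array and 4523 in the control array, a log2 difference of 0.29. The dimmer probe (rn4 chr2:203927627-203927686) read 1287 in the dexamethasone array and 938.1 in the control array, a log2 difference of 0.38. Both were higher, at 1.22-fold and 1.30-fold, well within the 2-fold rule.

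Ntrk2 encodes TrkB, made both as the full receptor tyrosine kinase and as truncated forms without the kinase, which are abundant in astrocytes. Its 4 probes, assigned by the array design to 3 transcript variants, did not give 1 answer. The brightest, of variant 1 (rn4 chr17:11495183-11495242), read 18127 in the dexamethasone array and 18292 in the control array, a log2 difference of -0.09. The variant 1 probe on the docking site for phospholipase C gamma read 1774 in the dexamethasone array and 1503 in the control array, a log2 difference of 0.16. The probe of variant 2 (rn4 chr17:11680049-11680108) read 4674 in the dexamethasone array and 4295 in the control array, a log2 difference of 0.05. These 3 probes lay close to equality.

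The variant 3 probe of Ntrk2 (rn4 chr17:11734704-11734763) stood apart. It read 77.9 in the dexamethasone array and 269 in the control array, a log2 difference of -1.86, or 3.63-fold lower. It ranked 131st from the bottom of 23321 probes measured on both arrays. It was 54.7 kb from the variant 2 probe, and its difference lay 1.91 below that of variant 2 and 2.03 below that of the docking-site probe. Probes of similar mean brightness over both arrays had a median spot SD of 0.081 and a highest of 0.18 (68 probes). The probe stayed past 2-fold lower under the scaling and background alternatives, from -1.28 with normexp correction to -1.86 with outlier spots kept. It rests on 1 spot per array. Its transcript record is absent from the RefSeq gene table used for names, so which Ntrk2 RNA it reads is uncertain.

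**Figure D3:**
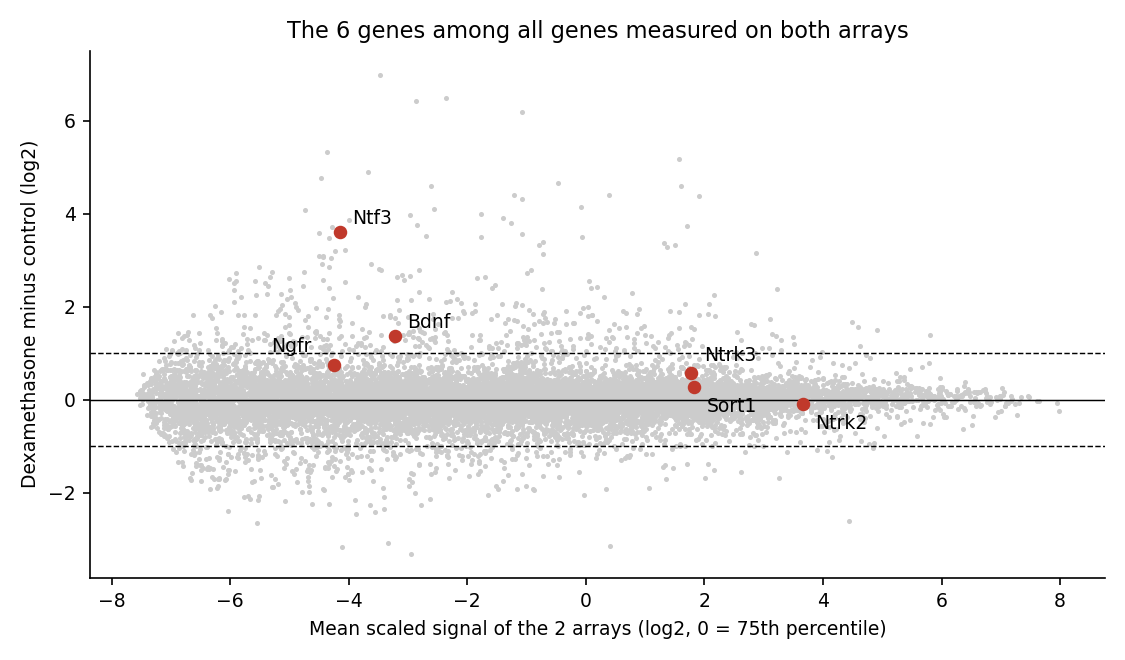
Log2 difference, dexamethasone minus control, against the mean scaled signal of both arrays (log2, 0 at the 75th percentile) for 14175 genes (grey) and the 6 neurotrophin and receptor genes (red, at their brightest probe); dashed lines mark 2-fold. Ntf3 and Bdnf lie above the upper line among the dimmer genes, and Ntrk3, Sort1 and Ntrk2 lie within 2-fold among the brighter ones.

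The Bdnf gene starts from several promoters, each with its own first exon, and its single probe does not tell the starts apart. RefSeq start windows (GRCr8, 250 bases before to 50 after a start) were listed for 3 of the 6 genes, with 6 windows for Bdnf, 3 for Ntf3 and 1 for Sort1. Some windows share most of their bases, so they are not all separate promoters. These are chr3:116639552-116639851 with chr3:116639608-116639907 for Bdnf, and chr4:160670574-160670873 with chr4:160670573-160670872 for Ntf3. The letters CGTCA, on either strand, are the core of the element bound by CREB, the activity-regulated transcription factor best known for switching on Bdnf in neurons. They were in 1 of 6 Bdnf windows, 0 of 3 Ntf3 windows and 0 of 1 Sort1 window, and in 21.2% of all 33469 windows. The window that holds them (chr3:116637608-116637907, plus strand) is shown with the letters in capitals, 35 bases before the start.
Bdnf: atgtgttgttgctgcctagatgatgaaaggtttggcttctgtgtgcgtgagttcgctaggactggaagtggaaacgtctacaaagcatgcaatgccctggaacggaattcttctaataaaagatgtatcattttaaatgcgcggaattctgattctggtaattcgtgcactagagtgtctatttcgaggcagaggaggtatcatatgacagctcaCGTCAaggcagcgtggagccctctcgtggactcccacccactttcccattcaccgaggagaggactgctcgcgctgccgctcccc
The full palindromic CREB element TGACGTCA, searched on both strands and itself holding the core letters, was in 0 of these windows and in 1.83% of all windows. The glucocorticoid receptor element, AGAACA and TGTTCT with 3 bases of any kind between them, was in 0 of these windows and in 0.0149% of all windows. A match or its lack describes the letters of these windows alone.

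The other genes of the pathway were taken from lists by role. Of 105 listed genes other than the 6, 99 were measured, with a median log2 difference of 0.13. By their brightest probes 8 (8.08%) passed 2-fold upward and 0 downward, where 3.37% of all measured genes passed upward and 2.38% downward. Ntf4, encoding another TrkB ligand, was dim, at 18.4 in the dexamethasone array and 19.9 in the control array, a log2 difference of -0.19 that turned to 0.03 with normexp correction.

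Of 5 other receptors of the family 2 passed 2-fold upward, where 3.37% of all measured genes did. Among them Sorl1, a sortilin relative that sorts proteins in endosomes, read 4827 in the dexamethasone array and 1568 in the control array, a log2 difference of 1.55, with 1.41 on its other probe. Sorcs1, Sorcs2 and Sorcs3, further sortilin relatives, were at 0.44, -0.46 and 0.01, the last turning to -0.03 with normexp correction.

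Genes that handle the precursors or carry the signal lay mostly close to equality by their brightest probes. None of 9 measured genes of precursor cleavage passed 2-fold (median 0.06). Plg, the plasmin precursor, was at 0.75 and the convertase Pcsk7 at -0.45. None of 22 Trk adaptor genes passed 2-fold by its brightest probe (median 0.04). Shc1, a Shc adaptor, was at -0.05 on that probe, but its other measured probe was at -1.15, past 2-fold lower. Over the alternatives Shc1 ran from -0.60 to -0.01. Plcg1, the phospholipase C gamma that docks on the Trk receptors, was lowest by brightest probe at -0.76, and its other probe was at -0.63. The brighter Plcg1 probe read 312.4 in the dexamethasone array and 501.7 in the control array. Gab2, a scaffold of the PI3 kinase pathway, was at 0.59 but 0.05 with normexp correction, and Shc2, a neuronal Shc adaptor, at -0.54. None of 12 partners and cleaving enzymes of p75 passed 2-fold (median 0.03), with Psen2, a catalytic subunit of gamma-secretase, at -0.29 and the ubiquitin ligase Traf6 at 0.29.

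Among 26 measured downstream kinases and small GTPases 1 (3.85%) passed 2-fold upward and 0 downward (median 0.21), near the 3.37% upward of all measured genes. It was Camk2a, a calcium-dependent kinase of forebrain excitatory synapses, at 1.01, which was 0.90 with normexp correction. Map2k1, the kinase that activates ERK, was at 0.71 and Camk4, a nuclear calcium-dependent kinase, at 0.54. None of 11 regulators of Bdnf transcription passed 2-fold (median 0.11), with the factors Mef2c at 0.74 and Creb1 at 0.50. Npas4, a factor induced by neuronal activity, was dim, at 11 in the dexamethasone array and 8.28 in the control array, a log2 difference of 0.33 that ran from -0.0066 to 0.40 over the alternatives.

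Genes known to be induced by BDNF in neurons were the pathway list with most members past 2-fold. Of 12 measured genes other than Bdnf 5 passed it upward and 0 downward (median 0.66), where 3.37% of all measured genes passed upward. Cort, the cortistatin gene of cortical interneurons, was 17.1-fold higher, with a signal of 1046 in the dexamethasone array and 57.8 in the control array. Its log2 difference of 4.10 was 2.98 with normexp correction. Arc, a regulator of synaptic strength, was at 2.56, Npy, the neuropeptide Y gene, at 1.85, Sst, the somatostatin gene, at 1.41 and Egr1, an activity-induced transcription factor, at 1.35. In the other direction Vgf, a secretory peptide gene, was at -0.37, Dusp6, an ERK phosphatase, at -0.36 and Nptx2, a synaptic pentraxin, at -0.41. Several of these genes also mark forebrain neurons, whose markers differed between the arrays.

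**Figure D4:**
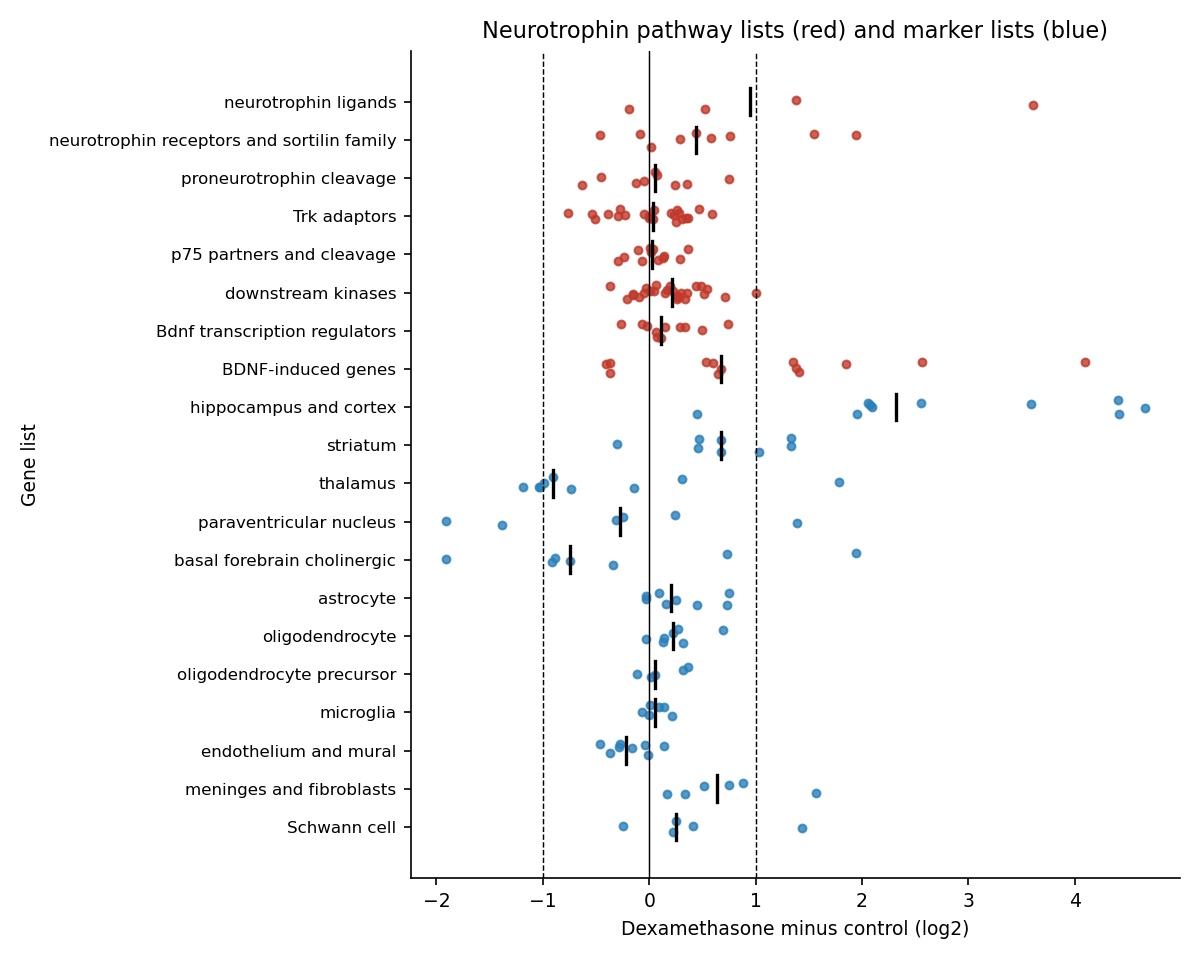
Log2 difference, dexamethasone minus control, of each measured gene (points) in 8 neurotrophin pathway lists (red) and 12 marker lists (blue), with list medians as black bars and 2-fold as dashed lines. The BDNF-induced genes and the hippocampus and cortex markers extend far to the right, while Trk adaptors and p75 partners sit around 0.

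Markers of hippocampus and cortex, where Bdnf and Ntf3 are well known to be made in the rat, moved with the ligand genes. Of 10 measured markers 9 passed 2-fold upward and 0 downward (median 2.32, and 1.86 with normexp correction), where 3.37% of all measured genes passed upward. Their signals ran from 44.6 to 9607 in the dexamethasone array and from 12.1 to 2185 in the control array. The measured marker that did not pass, Prox1, was at 0.45, and 0.31 with normexp correction. The last listed marker, Tbr1, passed the background criterion with dexamethasone alone. Fewer cells of a type and less RNA per cell cannot be told apart in such tissue, and the part of this tissue difference in the Ntf3, Bdnf and Camk2a values was not tested. Striatal markers were higher in 3 of 8 and lower in 0 by the 2-fold rule (median 0.68). By the same rule thalamic markers were higher in 1 of 9 and lower in 3 (median -0.91), where 2.38% of all measured genes passed downward.

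The defining peptide genes of the paraventricular nucleus were measured on both arrays. Avp, the vasopressin gene, read 970.3 in the dexamethasone array and 3464 in the control array, Oxt, the oxytocin gene, 587.4 in the dexamethasone array and 1455 in the control array, and Crh, the corticotropin-releasing hormone gene, 636.3 in the dexamethasone array and 230.2 in the control array. Sim1, a transcription factor that specifies the nucleus, was dim, at 12.0 in the dexamethasone array and 14.1 in the control array, and Otp, another, passed the background criterion with dexamethasone alone. Over 6 measured markers of the nucleus the median was -0.28.

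Marker lists of other cells, among them cells known to carry p75 or truncated TrkB, were read the same way. Basal forebrain cholinergic markers, whose neurons carry p75, had a median of -0.75 over 7 genes, with Slc5a7, the choline transporter, at -1.91. Astrocyte markers had 0 of 8 past 2-fold (median 0.20), oligodendrocyte markers 0 of 7 (median 0.23), oligodendrocyte precursor markers 0 of 5 (median 0.05), microglial markers 0 of 6 (median 0.05) and endothelial and mural markers 0 of 8 (median -0.21). Markers of meninges and fibroblasts passed 2-fold upward in 1 of 6 (median 0.63, with the collagen gene Col1a2 at 1.57). Schwann cell markers passed it in 1 of 5 (median 0.25), where 3.37% of all measured genes did. The part of the cells of these lists in the Ngfr value was not tested.

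The genes nearest to each ligand gene in their difference were named by the distance between log2 differences, among 7073 other genes of at least median signal. With 2 arrays this likeness is 1 number per gene. Nearest to Ntf3 were Rgs14, a regulator of G-protein signalling (3.57), Cabp7, a calcium-binding protein gene (3.51), and Nrgn, the neurogranin gene (3.73), and 1 gene lay within 0.1 of it. Nearest to Bdnf were Cpne6, a copine gene (1.37), Shisa7, which encodes a synaptic membrane protein (1.38), and Hopx, a homeodomain-only gene (1.38), with 34 genes within 0.1.

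**Figure D5:**
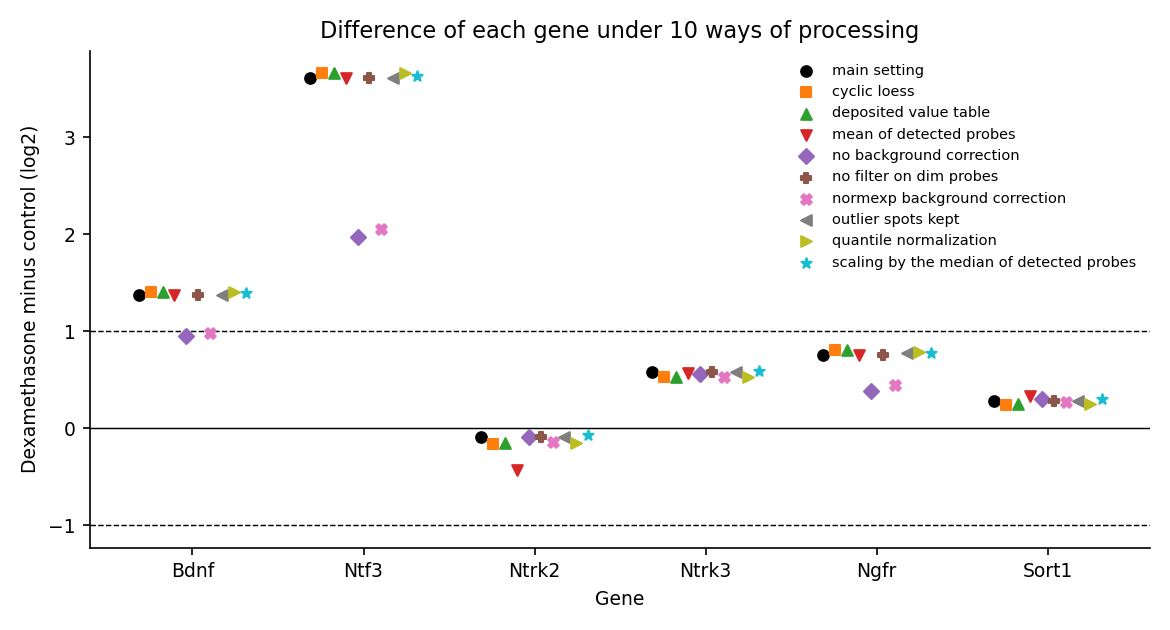
Log2 difference, dexamethasone minus control, of each of the 6 genes under the main setting (black) and 9 alternatives (coloured symbols); dashed lines mark 2-fold. Bdnf dips just under the upper line with normexp and with no background correction, Ntf3 stays above it throughout, and Ntrk2 is lowest, at -0.44, when its 4 probes are averaged.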

How the data were processed

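Each deposited scanner file gives a linear intensity per spot with background already subtracted by Feature Extraction 10.7.1.1, per the file headers; version 9.5.1.1 is named in the submitters' processing notes. Probe positions are rn4, per the file headers. The deposited value table holds a further normalized intensity by an algorithm not given in the sources used here; its columns share a median of 149.9.

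The log2 processed intensity of a probe is the mean of its spots without outlier marks (249 spots were marked in the dexamethasone array and 267 in the control array), and each array's 75th percentile over non-control probes was subtracted. No spot was saturated. A gene took its brightest probe well above background on both arrays. Differences are dexamethasone minus control. The background criterion was passed by 78.2% of dexamethasone probes and 79.5% of control probes. Both arrays lay on 1 slide, and group cannot be told apart from position on it. The number of arrays limits the precision.

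Names were updated through RefSeq genes (GRCr8): 18006 probes by accession, 2654 by symbol and 559 by older symbol; another 9148 were left out of gene counts. Alternatives used limma 3.58.1 for cyclic loess, quantile and normexp (offset 50) normalization. Named genes are all 6 members, pathway genes past 2-fold, the 3 with the largest difference in each pathway list, the 3 nearest to each ligand gene, and marker genes past 2-fold, of which some are printed; a few genes under this rule are not reported here. Other genes named to complete a list (Vgf, Dusp6, Nptx2, the Sorcs genes, Shc1, Sim1, Otp, Prox1 and Tbr1) were picked with their values in view. The members and lists were chosen with earlier results of these data known. The scripts were tested on simulated data.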

Additional observations from a re-analysis of the deposited data

How the results depend on the processing

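Without background correction 1 of the 6 genes was past 2-fold in place of 2, their median difference was 0.47, and 413 of all genes passed 2-fold (280 higher and 133 lower) in place of 816 (478 higher and 338 lower). With normexp background correction these were 1 gene, 0.48 and 415 genes (287 higher and 128 lower). The gene lost in both was Bdnf. With no filter on dim probes 1602 of 17573 genes passed 2-fold, against 816 of 14175 in the main setting. The calls rose proportionally more than the genes counted. The count of 6-gene calls was 2 under the other 7 alternatives, and the count of other pathway genes stayed within 1.5 times its value of 8 under all 9. Averaging all probes put Ntrk2 at -0.44, since its variant 3 probe then counted. No paired analysis was possible because each group has 1 array. Dim probes such as Ntf3 and Ngfr are limited by their small excess over the local background.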
